A study of Homo sapiens with 12 samples.

Results

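The DNA replication machinery of A549 cells, a human epithelial line from a lung adenocarcinoma, was described here through 47 genes. They were chosen by name for their function, with no measured value in the rule but with earlier results of these data known. These genes encode the proteins that license origins, start and move the replicative helicase, synthesize DNA, load and carry the sliding clamp, bind single-stranded DNA, join lagging-strand fragments, protect the fork and rebuild chromatin behind it. All 47 were among the 25365 names of the expression table, each on 1 row, and all 47 were among the 11881 genes that were tested. Wild-type (WT) cells and PARP3-/- cells received either vehicle (DMSO) or 1 µM pyridostatin for 24 h, which makes 4 groups of 3 biological replicates and 12 RNA-seq libraries in all. Pyridostatin is a small molecule that binds and stabilizes G-quadruplexes, 4-stranded structures of guanine-rich DNA, and PARP3 is a mono-ADP-ribosyltransferase of the DNA damage response. The PARP3-/- cells were made with Cas9, which removed part of the first exon, passed through a short puromycin selection and were cloned by serial dilution, and how many clones entered the RNA-seq is not given in the sources used here. The study describes its PARP3-/- A549 cells as holders of a rearrangement reporter, a transgene cassette with a hygromycin resistance gene, and whether the WT or PARP3-/- cells of these libraries held it is not given either. All groups share the A549 background and the same culture medium, and the labels name no further allele or agent. Values are FPKM, in which the fragments of a gene are scaled to transcript length and to mapped reads. This allows an approximate comparison between genes and between libraries, but it does not fix the library total. The values summed to 563473 FPKM in WT vehicle replicate 2 and to 492839 to 525124 FPKM in the other libraries. Fits after quantile normalization and with equal library medians are therefore given as well.

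In the G1 phase, the origin recognition complex (ORC), CDC6 and CDT1 load the ring of MCM2 to MCM7 onto DNA, while geminin (GMNN) blocks CDT1 once S phase has begun. The kinase CDC7 with its activator DBF4, together with CDC45, the GINS complex and MCM10, turns the loaded ring into the active helicase (CMG). DNA polymerase α with primase then makes primers, polymerases ε and δ extend them with the clamp PCNA, and FEN1 and LIG1 process and seal the lagging strand. In proliferating cells, many of these genes are transcribed around the G1/S boundary, and E2F factors are known activators of them.

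Relative depth, read from the steps between low FPKM values, differed by at most 1.42 times between the deepest and the shallowest library, with 19.9% to 25.3% of the compared low values at the common step. WT vehicle replicate 2 stood apart. Its deviations from the mean of the other libraries of its group fell with transcript length (Spearman's rho −0.42 over 11132 genes and −0.54 over the 47 replication genes, as a description). Over all genes, rho was −0.14 to 0.11 in the libraries of the other groups. It was 0.38 and 0.35 in WT vehicle replicates 1 and 3, whose deviations were taken partly from replicate 2. Counts, lists and medians are therefore also given without WT vehicle replicate 2. Epithelial markers summed to 6912 to 8630 FPKM per library, although EPCAM stayed at or below 2.36 FPKM. Markers of leukocytes, endothelium and fibroblasts summed to 0.799 to 1.13 FPKM in WT and 1.51 to 1.97 FPKM in PARP3-/- libraries, with CD3E at 0 in every library and most of the sum from COL1A1, and their part in the results was not tested. The PARP3 transcript was not lower in the libraries labelled PARP3-/- (4.41 ± 0.447 against 3.73 ± 0.293 FPKM with vehicle, SD, n = 3 each, p = 0.1 in a two-sided exact permutation test, as low as 3 against 3 can go), so genotype here follows the labels.

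The 47 genes differed widely in level. In WT vehicle cells PCNA was the highest, at 391 ± 15.4 FPKM (SD, n = 3), followed by MCM7 at 138 ± 9.03 FPKM and POLD2, a small subunit of polymerase δ, at 82.5 ± 6.43 FPKM. The lowest were CDC7, at 8.65 ± 1.16 FPKM, and WDHD1, a fork protein that links the helicase to polymerase α, at 9.38 ± 1.05 FPKM. In the order of levels, 10 of the 46 pairs of neighbours had WT vehicle libraries that did not overlap, PCNA with MCM7 and MCM7 with POLD2 among them, and the other 36 pairs did overlap. The 6 subunits of the MCM ring, which is built from 1 copy of each, ran from 36 ± 1.06 FPKM for MCM6 to the level of MCM7.

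The first question was whether pyridostatin changed these genes in WT cells. Of the 47 genes, 14 were lower with pyridostatin and 0 were higher at an adjusted p under 0.05 (limma on log2(FPKM + 1), all 4 groups in the model, n = 3 each, Benjamini-Hochberg over all genes tested). Over all genes tested, 1.38% were called lower and 2.79% higher. The falls were small: the median log2 fold change of the 47 was −0.17, against 0.003 for all genes, and none reached an absolute log2 fold change of 1. By sign, 44 of the 47 fold changes were below 0, and for 30 genes every pyridostatin library lay below every vehicle library, as did 9.71% of all genes tested. All replication genes had a mean above 5 FPKM, and among the 8499 tested genes with such a mean 1.89% were called lower in WT. In RNA pooled from a culture, fewer cells that express a gene and less of its RNA per cell cannot be told apart. Without WT vehicle replicate 2, 19 of the 47 were called lower and the median was −0.14, where 2.47% of all genes tested were called lower. Without WT pyridostatin replicate 1 there were 9 calls, where 0.387% of all genes tested were called lower. With only the 6 WT libraries in the model, 1 gene was called, MCM2, and 0.0758% of all genes tested were called lower.

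**Figure D1:**
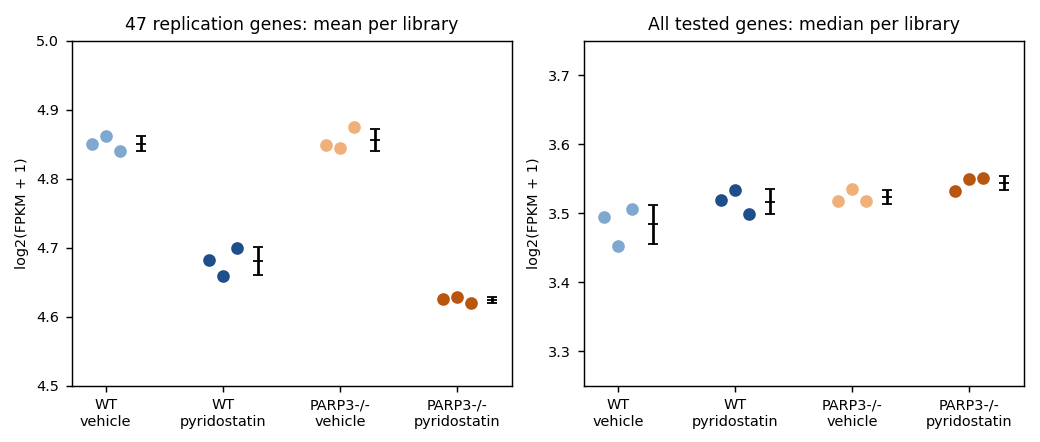
Mean log2(FPKM + 1) of the 47 replication genes in each library (left) and the median of all tested genes (right), by group; each point is 1 library, the bars give the mean and SD of 3 libraries, and both vertical axes span 0.5 log2 units without starting at 0. The replication genes lie at 4.84 to 4.87 in the vehicle libraries and at 4.62 to 4.70 in the pyridostatin libraries.

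Averaged over the 47 genes, every pyridostatin library lay below every vehicle library of its genotype. With vehicle the averages were 4.85 ± 0.0114 in WT and 4.86 ± 0.0164 in PARP3-/- cells (log2(FPKM + 1), SD, n = 3 libraries). With pyridostatin the averages were 4.68 ± 0.0202 in WT and 4.62 ± 0.00410 in PARP3-/-. Over the same libraries, the median of all tested genes stayed between 3.45 and 3.55.

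Origin licensing genes made up the largest share of the calls in WT cells: 8 of 11 were called lower, with a median log2 fold change of −0.24. MCM6, a subunit of the helicase ring, was at 35.8, 35.1 and 37.2 FPKM in the WT vehicle libraries and at 27.1, 28.5 and 29.8 FPKM with pyridostatin. The groups did not overlap, and the pyridostatin mean was 79.1% of the vehicle mean (log2 fold change −0.33, SE 0.0383, limma adjusted p = 0.000933). MCM2, which carries histones as well as being a ring subunit, was at 46.8, 47 and 45.8 FPKM with vehicle and 36.7, 37.7 and 37.9 FPKM with pyridostatin. Its fold change was −0.31 (SE 0.0395, limma adjusted p = 0.0017), again without overlap. MCM3 went from 53.9, 53.7 and 53 FPKM to 43.7, 44.4 and 46.2 FPKM. That is a log2 fold change of −0.25 (SE 0.0338, limma adjusted p = 0.0022), with every treated library below every control library. CDC6, the ATPase that recruits the ring to ORC, stood at 46.9, 48 and 48.6 FPKM with vehicle and at 40.1, 38.6 and 40.2 FPKM with pyridostatin (log2 fold change −0.27, SE 0.0318, limma adjusted p = 0.00114). ORC1, the largest ORC subunit, stood at 14.3, 14.6 and 14.2 FPKM and at 12.2, 12.3 and 12.7 FPKM (log2 fold change −0.20, SE 0.0357, limma adjusted p = 0.0133). For both CDC6 and ORC1 the groups were apart. MCM7, CDT1 and MCM4 completed the 8 (log2 fold changes −0.23, −0.34 and −0.21, limma adjusted p = 0.0236, 0.0334 and 0.0358). The call of MCM4 was lost in 14 of 20 alternatives, that of CDT1 in 8 and that of MCM7 in 4, while those of the 5 genes above were lost in at most 2. MCM5 (log2 fold change −0.24, adjusted p = 0.055), GMNN (−0.17, adjusted p = 0.188) and ORC6 (−0.05, adjusted p = 0.725) did not pass the limma test. Summed over MCM2 to MCM7, the ring subunits were at 404 ± 9.76 FPKM with vehicle and 339 ± 5.46 FPKM with pyridostatin (SD, n = 3).

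Among the 8 genes of helicase activation and the CMG, 4 were called lower in WT and the median log2 fold change was −0.27. MCM10, which helps the helicase to start, was at 19.5, 18.7 and 19.5 FPKM in the vehicle libraries and at 15.8, 15.6 and 14.9 FPKM in the pyridostatin libraries. The groups were separate, with a log2 fold change of −0.30 (SE 0.0352, limma adjusted p = 0.000933). GINS2, a GINS subunit, had the most negative fold change of the 47 genes in WT: it was at 58.5, 70.9 and 58.3 FPKM with vehicle and at 43.2, 44.5 and 47.4 FPKM with pyridostatin. The highest of these values came from WT vehicle replicate 2, the library that stood apart. The log2 fold change of GINS2 was −0.46 (SE 0.067, limma adjusted p = 0.00378) with that library and −0.37 without it. DBF4, the activating subunit of the CDC7 kinase, read 14.3, 12.7 and 13.3 FPKM with vehicle and 10.4, 10.6 and 10.9 FPKM with pyridostatin (log2 fold change −0.31, SE 0.0503, limma adjusted p = 0.00764). CDC45, a core part of the CMG, read 24.2, 26.8 and 22.3 FPKM and 19.7, 18.8 and 19.4 FPKM (log2 fold change −0.32, SE 0.0558, limma adjusted p = 0.0105). Both were lower in all 3 treated libraries than in any control. CDC7 itself, the gene with the lowest mean of the 47, was at 9.61, 7.37 and 8.96 FPKM with vehicle and 6.99, 7.52 and 6.82 FPKM with pyridostatin. Those groups overlapped, because WT vehicle replicate 2 was low, and CDC7 did not pass the test (log2 fold change −0.24, limma adjusted p = 0.105). Without that library CDC7 was called lower (log2 fold change −0.34, limma adjusted p = 0.00498), as it was after quantile normalization (−0.29, adjusted p = 0.0406) and with equal library medians (−0.28, adjusted p = 0.0485). GINS1, GINS3 and GINS4 did not pass in the main comparison, with log2 fold changes of −0.21, −0.11 and 0.04.

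Of the genes downstream of the helicase in WT cells, 1 of 9 polymerase and primase genes, 0 of 8 clamp and clamp loader genes, 0 of 3 single-strand binding genes, 0 of 2 lagging-strand genes, 0 of 3 fork protection genes and 1 of 3 chromatin genes were called lower. At an unadjusted p under 0.05 the polymerase and primase genes gave 5, the clamp genes 5 and the single-strand binding genes 0. The lagging-strand genes gave 2, the fork protection genes 2 and the chromatin genes 3. Over all genes tested, 2410 of 11881 were at such a p. PRIM1, the catalytic subunit of primase, was at 33.1, 31.5 and 33.5 FPKM with vehicle and 26.1, 24.3 and 27.9 FPKM with pyridostatin, without overlap (log2 fold change −0.32, SE 0.0597, limma adjusted p = 0.0168). CHAF1B, a subunit of the chromatin assembly factor that places new histones, was at 18.5, 18.9 and 18.6 FPKM and 16.7, 15.3 and 15.6 FPKM (log2 fold change −0.22, SE 0.0418, limma adjusted p = 0.0185). Both fell in every treated library. PCNA behaved otherwise: it was at 385, 409 and 379.8 FPKM with vehicle and 415, 404 and 418 FPKM with pyridostatin, so the groups overlapped and the treated mean was the higher. Its log2 fold change of 0.08 (95% interval −0.01 to 0.16, limma adjusted p = 0.296) did not pass the test. After quantile normalization PCNA was called higher in WT (log2 fold change 0.15, limma adjusted p = 0.0269). The median log2 fold changes of these groups were −0.10 for polymerases and primase, −0.15 for the clamp and its loaders, −0.12 for single-strand binding, −0.12 for lagging-strand maturation, −0.09 for fork protection and −0.20 for chromatin. When WT vehicle replicate 2 was left out, 8 of the licensing and 6 of the helicase genes were called lower, with medians of −0.25 and −0.30, beside 2.47% of all genes tested. POLA1, RFC3 and UHRF1 were then called lower as well, and the medians of the single-strand binding and lagging-strand genes came to −0.06 and −0.08. Differences between the groups of genes were not tested.

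The same comparison in PARP3-/- cells used none of the WT libraries for its fold changes. Here 30 of the 47 genes were called lower and 0 higher (limma, adjusted p under 0.05), where 2.52% of all genes tested were called lower and 3.05% higher. The median log2 fold change was −0.22, against 0.002 for all genes. For 43 genes the pyridostatin libraries all lay below the vehicle libraries, as for 15.7% of all genes tested. Of the 8499 tested genes with means above 5 FPKM, 3.62% were called lower. No gene of the 47 reached an absolute log2 fold change of 1. The count depended on single libraries. It was 16 without PARP3-/- pyridostatin replicate 3, where 0.758% of all genes were called lower. Without PARP3-/- vehicle replicate 3 it was 17, with 0.943% of all genes called lower. It was 39 without WT vehicle replicate 2, which enters only through the shared spread, with 6.19% of all genes then called lower.

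**Figure D2:**
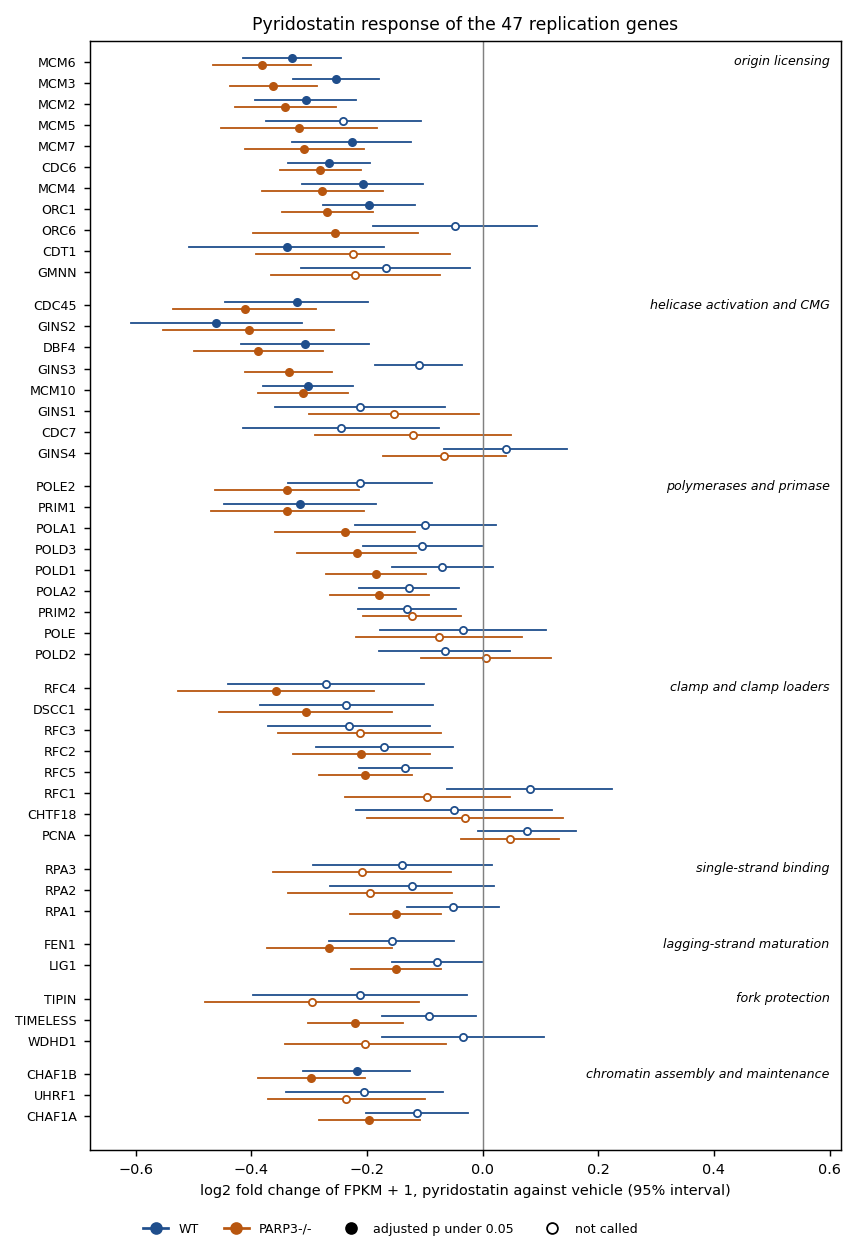
Log2 fold change of FPKM + 1 between pyridostatin and vehicle (horizontal axis) for each of the 47 replication genes, grouped by role, in WT (blue) and PARP3-/- cells (orange); lines are 95% intervals from limma, n = 3 libraries a group, and filled points have an adjusted p under 0.05. Most points lie left of 0 in both genotypes, with 14 filled points in WT and 30 in PARP3-/- cells.

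In PARP3-/- cells 9 of the 11 licensing genes were called lower, with a median log2 fold change of −0.28. MCM3 had the smallest p: it was at 57.6, 57.9 and 61.1 FPKM with vehicle and 46, 45.2 and 45.5 FPKM with pyridostatin. The treated mean was 77.4% of the control mean (log2 fold change −0.36, SE 0.0338, limma adjusted p = 0.000261), and the groups were far from overlap. MCM6 was at 34.2, 33.8 and 34.8 FPKM with vehicle and 26.3, 25.9 and 26 FPKM with pyridostatin (log2 fold change −0.38, SE 0.0383, limma adjusted p = 0.000425). MCM2 was at 43.9, 47.5 and 48.7 FPKM and 36.8, 37.1 and 35.9 FPKM (log2 fold change −0.34, SE 0.0395, limma adjusted p = 0.000831). All 3 ring subunits thus lay lower in each treated library than in each control library. CDC6 was at 45.9, 45.5 and 47.4 FPKM with vehicle and 38, 38.3 and 37.4 FPKM with pyridostatin (log2 fold change −0.28, SE 0.0318, limma adjusted p = 0.000816). ORC1 was at 12.9, 14 and 13.8 FPKM and 11.1, 11.2 and 11 FPKM (log2 fold change −0.27, SE 0.0357, limma adjusted p = 0.00196), and its 3 treated libraries were close together. MCM7, MCM4, MCM5 and ORC6 were also called, with log2 fold changes of −0.31, −0.28, −0.32 and −0.26 (limma adjusted p = 0.00398, 0.00791, 0.0143 and 0.046). Of these, MCM7 and MCM4 kept their call in all 20 alternatives and MCM5 in 18, whereas ORC6 lost it in 13. CDT1 (−0.22, adjusted p = 0.124) and GMNN (−0.22, adjusted p = 0.0844), the loader and its inhibitor, did not pass the limma test. The summed level of MCM2 to MCM7 was 413 ± 10.5 FPKM with vehicle and 329 ± 4.78 FPKM with pyridostatin (SD, n = 3).

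Of the 8 helicase activation and CMG genes, 5 were called lower in PARP3-/- cells, with a median of −0.32. GINS3, another GINS subunit, was at 14.5, 14.8 and 14.9 FPKM with vehicle and 11.5, 11.4 and 11.6 FPKM with pyridostatin. The gap between the groups was several times the range within either of them (log2 fold change −0.34, SE 0.0341, limma adjusted p = 0.000425). CDC45 had the most negative fold change of the 47 in this genotype, at 24.5, 23.9 and 25.1 FPKM with vehicle and 18.5, 18.3 and 17.7 FPKM with pyridostatin (log2 fold change −0.41, SE 0.0558, limma adjusted p = 0.00221). DBF4 was at 13.6, 12.6 and 12.8 FPKM and 10.2, 9.48 and 9.36 FPKM (log2 fold change −0.39, SE 0.0503, limma adjusted p = 0.00174). MCM10 was at 18.5, 18.8 and 19.1 FPKM and 14.9, 14.7 and 15.3 FPKM (log2 fold change −0.31, SE 0.0352, limma adjusted p = 0.000817). Each of these genes was lower in all treated libraries, and so was GINS2 (log2 fold change −0.40, limma adjusted p = 0.00664). GINS1 (−0.15) and GINS4 (−0.07) did not pass. CDC7 was at 8.05, 7.58 and 7.6 FPKM with vehicle and 7.25, 6.75 and 7.13 FPKM with pyridostatin, which did not overlap, but it did not pass the test (log2 fold change −0.12, limma adjusted p = 0.444).

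Beyond the helicase, 6 of 9 polymerase and primase genes were called lower in PARP3-/- cells (median −0.18): POLE2, PRIM1, POLD1, POLD3, POLA2 and POLA1, from −0.34 for POLE2, an accessory subunit of polymerase ε, to −0.18 for POLA2, the B subunit of polymerase α. POLE, the catalytic subunit of polymerase ε (−0.07), POLD2 (0.01) and PRIM2, the large primase subunit (−0.12), were not called. Of the clamp and clamp loader genes, 4 of 8 were called lower (median −0.21), namely RFC4, RFC5 and RFC2 of the loader RFC and DSCC1 of an alternative loader, from −0.36 to −0.20. RFC3 (−0.21), RFC1 (−0.10) and CHTF18, of the same alternative loader as DSCC1 (−0.03), did not pass. PCNA, the clamp itself, was at 385, 375 and 390.4 FPKM with vehicle and 395, 389.7 and 404 FPKM with pyridostatin, with overlapping groups and a log2 fold change of 0.05 (95% interval −0.04 to 0.13, limma adjusted p = 0.567). RPA1, the large subunit of the single-strand binding protein, fell (−0.15), as did the flap nuclease FEN1 (−0.26) and the ligase LIG1 (−0.15), while RPA2 (−0.20) and RPA3 (−0.21) did not pass. Among the genes beyond the helicase, the calls of RFC2, RPA1 and LIG1 were lost in 14, 11 and 9 of 20 alternatives. That of POLA1 was lost in 7, those of POLA2 and POLD3 in 6, those of POLD1, DSCC1 and CHAF1A in 5 and that of RFC4 in 4. The other calls beyond the helicase were lost in at most 2. TIMELESS, which with TIPIN protects the fork, was at 32.3, 31.5 and 33.3 FPKM with vehicle and 26.8, 28.4 and 27.8 FPKM with pyridostatin (log2 fold change −0.22, limma adjusted p = 0.00717). TIPIN (−0.30) and WDHD1 (−0.20) did not pass the test. CHAF1B was at 18.9, 17.7 and 19.2 FPKM and 14.6, 15.1 and 15.2 FPKM (log2 fold change −0.30, SE 0.0418, limma adjusted p = 0.00279). CHAF1A, its partner, also fell (−0.20, limma adjusted p = 0.0184), whereas UHRF1, which directs maintenance methylation to new DNA, was just outside the threshold (−0.24, limma adjusted p = 0.0512).

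**Figure D3:**
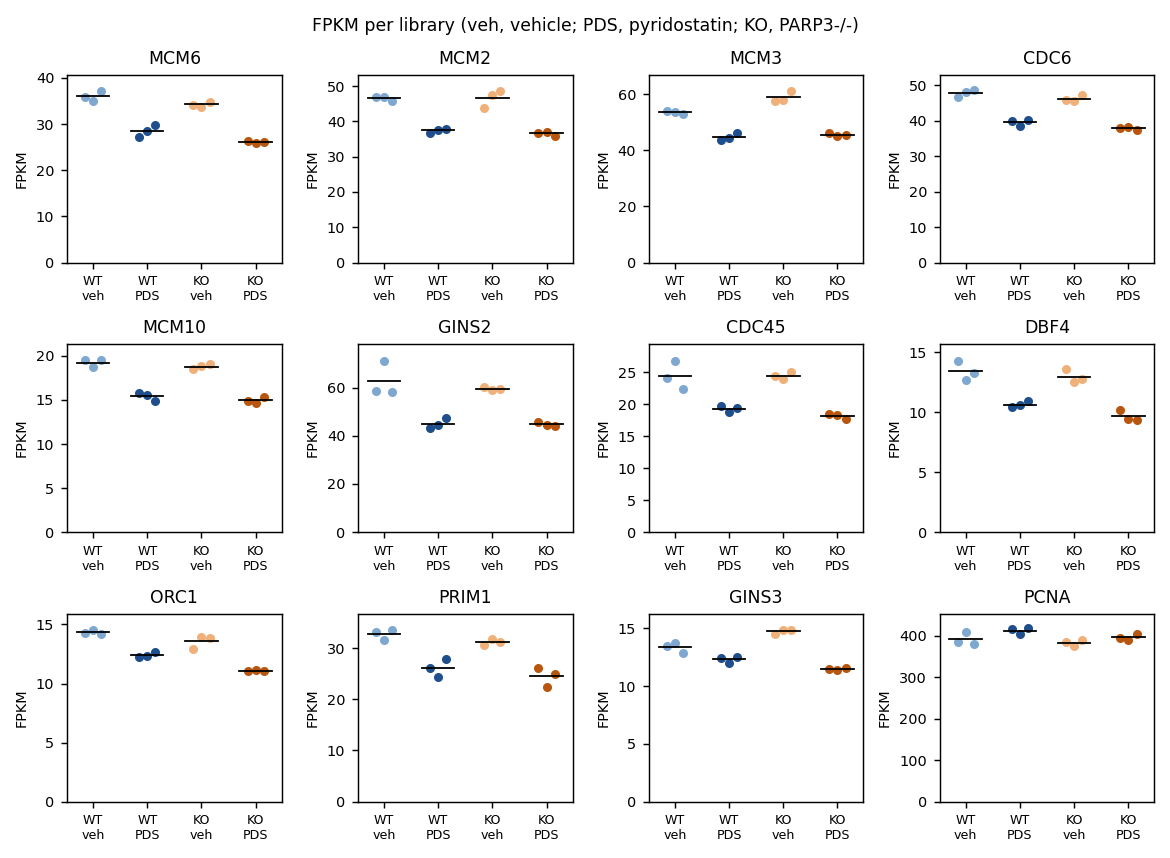
FPKM in each library for 12 replication genes, by genotype and treatment; points are the 3 libraries of a group, lines are group means, and every vertical axis starts at 0. All genes but PCNA are lower with pyridostatin in both genotypes, and the GINS3 means lie 11.5 against 14.7 in PARP3-/- and 12.3 against 13.4 in WT libraries.

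The calls of the 2 genotypes were then laid side by side. The fold changes of these comparisons share no library. Each call, however, uses a spread estimated over all 4 groups, so the 2 lists of calls are not independent. Of the genes called lower, 13 were called in both, which is 92.9% of the 14 called in WT and 43.3% of the 30 called in PARP3-/- cells. CDT1 was called in WT only. Without WT vehicle replicate 2 its WT log2 fold change was −0.26, and it was called in both genotypes. A further 17 were called in PARP3-/- cells only, and 16 in neither. Over all genes tested, 0.682% were called lower in both genotypes, 0.699% in WT only and 1.83% in PARP3-/- cells only. In all, 30 genes were lower without overlap in both genotypes and 13 in PARP3-/- cells alone, as were 4.86% and 10.9% of all genes tested, and the 4 genes without such a fall in either were CHTF18, PCNA, POLD2 and POLE. Across the 47 genes the fold changes of the 2 genotypes were correlated (Pearson's r 0.786, Spearman's rho 0.777, as a description of genes that are not independent replicates).

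**Figure D4:**
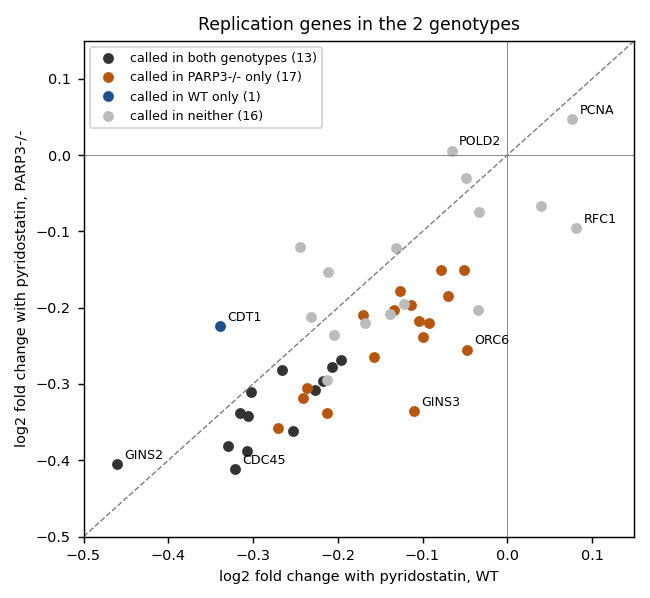
Log2 fold change with pyridostatin in WT cells (horizontal axis) against PARP3-/- cells (vertical axis) for the 47 replication genes, coloured by the genotype in which limma called them; the dashed line marks equal values. Most of the points, 39 of 47, lie below the line, and PCNA lies above 0 on both axes.

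Whether the response differed between genotypes was tested as an interaction. None of the 47 genes passed (limma, 0 called), nor did any other gene, so the percentage called was 0, and at an unadjusted p under 0.05 there were 4 of the 47 and 521 of all genes. The higher count in PARP3-/- cells is therefore not shown to be a larger response. The fold change was more negative in PARP3-/- cells for 39 of the 47 genes, and the median interaction was −0.072, against −0.007 for all genes, or −0.082 without WT vehicle replicate 2. The 3 genes with the smallest p were GINS3, TIMELESS and ORC6. GINS3 was at 13.5, 13.7 and 12.9 FPKM in WT vehicle and 12.4, 12 and 12.5 FPKM in WT pyridostatin libraries, where its fold change was −0.11, so that its interaction was −0.23 (unadjusted p = 0.000754, limma adjusted p = 0.999). TIMELESS was at 32.1, 30.9 and 32.1 FPKM in WT with vehicle and 29.5, 29 and 30.5 FPKM with pyridostatin, giving an interaction of −0.13 (95% interval −0.24 to −0.01, limma adjusted p = 0.999). In both cases the treated WT libraries were lower than the controls, by less than in PARP3-/- cells. ORC6 was at 24.7, 24 and 21.4 FPKM in WT with vehicle and 23.8, 20.8 and 22.9 FPKM with pyridostatin, which overlap, and at 23.8, 23.7 and 25.3 FPKM and 20.8, 20.8 and 19.1 FPKM in PARP3-/- cells, which do not (interaction −0.21, 95% interval −0.41 to −0.01, limma adjusted p = 0.999).

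Few replication genes were called between the genotypes themselves. With vehicle, 2 of 47 were called higher in the libraries labelled PARP3-/- and 0 lower (limma), where 6.4% of all genes tested were called higher and 3.01% lower. At an unadjusted p under 0.05 there were 4 of the 47 and 2564 of the 11881 genes tested. The median log2 fold change was 0.003 against 0.015 for all genes. The 2 genes called were MCM3 and GINS3, whose vehicle values are given above. MCM3 was higher in all 3 PARP3-/- libraries than in any WT library (log2 fold change 0.13, SE 0.0338, limma adjusted p = 0.0314), and so was GINS3 (0.13, SE 0.0341, limma adjusted p = 0.0355). The call of GINS3 was lost in 14 of 20 alternatives and that of MCM3 in 6, both after the medians of the libraries were set equal. Without WT vehicle replicate 2 there were 4 calls, of which MCM3, GINS3 and LIG1 were higher (log2 fold change of LIG1 0.10, limma adjusted p = 0.0362) and CDC7 was lower (−0.23, adjusted p = 0.0139). In that fit 8.82% of all genes tested were called higher and 5.02% lower. With pyridostatin, 8 of the 47 were at an unadjusted p under 0.05 (limma), as were 2855 of the 11881 genes tested. After adjustment 1 gene was called lower and 0 higher in PARP3-/- cells, where 3.85% of all genes were called lower and 7.07% higher. That gene was ORC1, at 12.2, 12.3 and 12.7 FPKM in WT and 11.1, 11.2 and 11 FPKM in PARP3-/- cells, again without overlap (log2 fold change −0.15, SE 0.0357, limma adjusted p = 0.0221). The median over the 47 was −0.066 (all genes 0.008), and 40 of 47 fold changes were below 0. Without WT vehicle replicate 2, which enters this comparison only through the spread, 6 genes were called, 5 lower and UHRF1 higher. Of all genes tested, 8.24% were then called lower and 11.1% higher. The call of ORC1 was lost in 5 of 20 alternatives.

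Another list held 37 other replication genes, such as further ORC subunits, histone chaperones and checkpoint factors. With pyridostatin in WT, 3 of 37 were called lower and 0 higher, beside 1.38% and 2.79% of all genes tested, and the list's median log2 fold change was −0.10 (all genes 0.003). They were KIAA0101, which encodes a PCNA-binding factor (−0.24, limma adjusted p = 0.0165), ASF1B, a histone chaperone (−0.21, adjusted p = 0.0273), and DTL, which targets CDT1 for destruction (−0.27, adjusted p = 0.0278). In PARP3-/- cells 5 were called lower and 0 higher, beside 2.52% and 3.05% of all genes tested, with a median of −0.14 (all genes 0.002): NASP, a chaperone of histone H3 (−0.31), DTL (−0.28), SSRP1 of the chaperone FACT (−0.15), ASF1B (−0.19) and ORC3 (−0.16). Between genotypes, ORC2 was lower in PARP3-/- cells with vehicle (9.51 ± 0.045 against 11.5 ± 0.732 FPKM, SD, n = 3, log2 fold change −0.24, limma adjusted p = 0.00456) and with pyridostatin (−0.21, adjusted p = 0.0106). ASF1A was lower with vehicle (−0.16, adjusted p = 0.0483) and SSRP1 with pyridostatin (−0.15, adjusted p = 0.0127, both limma). These were the 2 of 37 called lower in each of the 2 genotype comparisons, beside 3.01% of all genes with vehicle and 3.85% with pyridostatin, and 0 were higher. With WT vehicle replicate 2 left out, the list had 7 genes called lower in WT and 16 in PARP3-/- cells, with medians of −0.10 and −0.14. Of all genes tested, 2.47% and 6.19% were then called lower, against 1.38% and 2.52% with that library. The genes named here stayed among the calls.

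A further list held 22 regulators of replication genes: 8 E2F factors with their partner TFDP1, the RB family (RB1, RBL1 and RBL2), LIN9, LIN37, LIN52 and LIN54 of the MuvB complex, MYBL2, the cyclins CCNE1 and CCNE2, the phosphatase CDC25A, the kinase CDK2 and the CDK inhibitor CDKN1A. With pyridostatin, 1 was called higher and 4 lower in WT (2.79% and 1.38% of all genes tested), and 1 higher and 5 lower in PARP3-/- cells (3.05% and 2.52% of all genes). Their median log2 fold changes were −0.04 and −0.06, against 0.003 and 0.002 for all genes, and 17 of the 22 in WT and 16 in PARP3-/- cells were not called. CDKN1A, which encodes the CDK inhibitor p21, rose from 87 ± 7.27 to 193 ± 3.4 FPKM in WT (SD, n = 3, log2 fold change 1.14, limma adjusted p = 1.12e-05) and from 100.1 ± 3.9 to 208 ± 8.67 FPKM in PARP3-/- cells (1.05, adjusted p = 3.21e-05). E2F1, an activator of S-phase genes, was at 23.1, 27.5 and 24.6 FPKM in WT with vehicle and 17.9, 18.2 and 18.5 FPKM with pyridostatin (log2 fold change −0.44, limma adjusted p = 0.00474). In PARP3-/- cells it was at 24.6, 23.9 and 22.8 FPKM and 18.5, 19 and 16.5 FPKM (−0.39, adjusted p = 0.00803). These groups did not overlap in either genotype, and without WT vehicle replicate 2, which held the highest value, the log2 fold change in WT was −0.37 (limma adjusted p = 0.0071). E2F2, another activator, fell in both genotypes (−0.33 and −0.36), as did E2F8, a repressor of the family (−0.36 and −0.38), and MYBL2, which acts later in the cycle (−0.31 and −0.21). CDK2, the S-phase kinase, was called lower in PARP3-/- cells (−0.22, adjusted p = 0.0174), and CCNE1, its cyclin partner, was higher in PARP3-/- than in WT cells with pyridostatin (0.20, limma adjusted p = 0.0403). None of the 22 was called between genotypes with vehicle (limma, 5 at an unadjusted p under 0.05, beside 2564 of the 11881 genes tested). In the fit without WT vehicle replicate 2, the list had 1 gene called higher and 6 lower in WT (3.48% and 2.47% of all genes tested). In PARP3-/- cells it had 2 higher and 7 lower (6.94% and 6.19% of all genes). Between genotypes with vehicle, E2F8 was then lower and CCNE1 and CDKN1A were higher, beside 5.02% of all genes called lower and 8.82% higher. The part of these regulators in the levels of the replication genes was not tested.

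The promoters of the replication genes were searched for motifs of cell cycle transcription. The windows came from RefSeq on GRCh38.p14 and ran from 250 bases before to 50 bases after the start of each gene. The window table held 40 of the 47 genes, not MCM4, MCM5, GINS4, POLD3, DSCC1, RPA2 and RPA3, and 9280 of the tested genes (78.1%, older symbols included). E2F-type sites were searched in 2 forms on both strands, as TTTGGCGC, TTTCGCGC, TTTCCCGC or TTTGCCGC, and as GGCGGGAA. Where GGCGGGAA is followed by A, the same letters also hold TTTCCCGC on the other strand. Shown here are the windows of MCM6, GINS2 and CDC6, which fell in both genotypes, and of PCNA, which did not, each 5′ to 3′ on the strand of the gene, with E2F-type matches in capitals.
MCM6, chr2:135876394-135876693, minus strand: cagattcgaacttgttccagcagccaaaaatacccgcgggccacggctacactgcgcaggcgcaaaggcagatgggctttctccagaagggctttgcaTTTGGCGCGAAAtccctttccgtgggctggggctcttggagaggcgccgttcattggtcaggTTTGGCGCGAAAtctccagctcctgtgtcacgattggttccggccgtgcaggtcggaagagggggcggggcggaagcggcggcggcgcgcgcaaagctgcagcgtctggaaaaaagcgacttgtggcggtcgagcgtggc
GINS2, chr16:85688905-85689204, minus strand: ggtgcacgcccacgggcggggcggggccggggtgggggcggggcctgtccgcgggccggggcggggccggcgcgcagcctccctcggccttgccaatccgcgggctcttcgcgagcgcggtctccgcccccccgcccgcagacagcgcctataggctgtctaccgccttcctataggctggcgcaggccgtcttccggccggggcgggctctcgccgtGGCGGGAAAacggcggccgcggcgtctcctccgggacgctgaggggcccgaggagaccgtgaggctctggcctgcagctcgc
CDC6, chr17:40287629-40287928, plus strand: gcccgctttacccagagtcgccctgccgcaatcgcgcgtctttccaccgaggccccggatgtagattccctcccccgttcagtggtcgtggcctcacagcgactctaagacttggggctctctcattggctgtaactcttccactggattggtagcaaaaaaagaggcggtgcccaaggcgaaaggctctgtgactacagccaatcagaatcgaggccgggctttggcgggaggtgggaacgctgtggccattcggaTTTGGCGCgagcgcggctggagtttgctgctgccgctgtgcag
PCNA, chr20:5126573-5126872, minus strand: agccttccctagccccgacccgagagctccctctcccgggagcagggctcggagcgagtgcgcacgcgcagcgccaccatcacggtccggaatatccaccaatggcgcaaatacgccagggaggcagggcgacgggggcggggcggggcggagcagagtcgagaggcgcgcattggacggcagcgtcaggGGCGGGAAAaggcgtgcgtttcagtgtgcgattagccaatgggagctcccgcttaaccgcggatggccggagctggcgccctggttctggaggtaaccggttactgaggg

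In MCM6, matches stood at both of the stretches in capitals, each of which held overlapping matches on the 2 strands, with first letters at −152 and −90 from the start. GINS2 and PCNA each had 1 stretch, from −32 and −60, in which the 2 forms overlapped. The CDC6 match began 7 bases after the start. At least 1 E2F-type match was found in 22 of the 40 windows (55%), against 9.55% of the 9280 tested genes and 5.57% of all 27305 windows in the table. By form, the TTT form was in 42.5% of the 40 and 5.69% of the tested genes, and GGCGGGAA in 27.5% and 5.38%. CCAAT was in 57.5% and 37%, the GC box GGGCGG in 77.5% and 71.3%, and the CHR element of late cell cycle genes (TTTGAA or TTCGAA) in 5% and 10.9%. A G-quadruplex motif, that is, 4 runs of at least 3 G with loops of 1 to 7 bases on either strand, was in 12 of 40 windows (30%) and 34.1% of the tested genes. A match is a description of letters and not of a bound site.

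**Figure D5:**
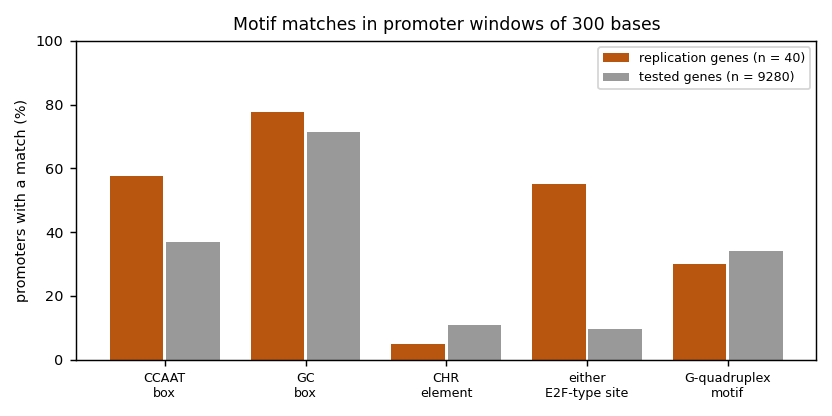
Share of promoter windows with at least 1 motif match (vertical axis, percent) for 40 replication genes and 9280 tested genes. E2F-type matches differ most between the 2 sets, at 55% and 9.55%, while G-quadruplex motifs are at 30% and 34.1%.

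The fold changes were then set beside the motifs. The 22 genes with an E2F-type match had a median log2 fold change with pyridostatin of −0.22 in WT and −0.24 in PARP3-/- cells, and the 18 genes without one −0.13 and −0.22. For the tested genes the medians with a match were −0.01 and −0.03, against 0.004 and 0.006 without. The range of the 22 reached from the fall of GINS2 to PCNA, whose window holds both forms. All windows shown above hold a match, which is not so for all genes that fell. Of the genes called lower in both genotypes, MCM2, MCM3, MCM6, MCM7, CDC6, GINS2 and PRIM1 had an E2F-type match. CDC45, DBF4, MCM10, ORC1 and CHAF1B had none, and MCM4 had no window. The 12 replication genes with a G-quadruplex motif had medians of −0.16 and −0.22, and the 28 without one −0.20 and −0.24. Without WT vehicle replicate 2 the WT medians were −0.23 with and −0.11 without an E2F-type match, and −0.11 with and −0.18 without a G-quadruplex motif. None of these differences was tested.

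Some of these values may hold reads of other genes. By GENCODE release 29, exons of other genes on the same strand cover 35.1% of the exon bases of POLA2, 21.0% of TIPIN and 16.2% of PRIM1. On the opposite strand they cover 23.6% of MCM2, 23.6% of GINS4, 10.9% of GINS3 and 10.6% of RFC5, and whether the authors' counting used the strand of the stranded libraries is not given in the sources used here. RefSeq names pseudogenes for PCNA (4), DBF4 (3), RPA2 (3), RPA3 (2) and TIPIN (2), and 1 each for ORC1, POLD2, RFC3, RFC5 and FEN1, so the levels of these genes are less certain.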

How the data were processed

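RNA-seq libraries were made from A549 cells with a stranded mRNA kit and sequenced as single-end reads of 75 bases. The authors deposited 1 table of FPKM values, with 1 column per library and no pooling of replicates. Per the labels, the submitters' processing notes name bcl2fastq 2.16, STAR 2.5 and Cufflinks, and both a human and a mouse genome build. The annotation is not given in the sources used here. Counts were not analysed here, so no count test was made, and depth is known only as a ratio between libraries.

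Tested were the 11881 of 25365 genes whose mean over the 12 libraries reached 1 FPKM, on log2(FPKM + 1), without further scaling. This scale understates the change of low genes. limma 3.58.1 in R 4.3.3 fitted 1 model of the 4 groups (eBayes with a trend, two-sided), with Benjamini-Hochberg adjustment over all genes tested for each of 5 contrasts. A gene was called at an adjusted p under 0.05. Genes past an absolute log2 fold change of 1 were counted separately. The procedure was tested on simulated data. Groups and replicate numbers came from the labels. Replicates are stated to be biological, without saying how cultures were separated, so p-values measure the spread between these libraries.

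The 47 genes, their roles, the 2 further lists and the tests were chosen with earlier results of these data known. The value in every library was given for up to 10 called genes per comparison, or the 3 of smallest p where none was called, and for the genes of highest and lowest mean. A gene taken up for 1 comparison could be given in both genotypes, as CHAF1B was, and E2F1 was given by library after its values were seen. Listed genes were named at an adjusted p under 0.05, at most 5 per list and comparison, and MYBL2 in PARP3-/- cells was named beyond that limit. MCM5, GMNN and other genes that were not called were named to account for every gene. Alternatives were a pseudocount of 0.1, a filter at 5 FPKM or none, quantile normalization, equal library medians, the libraries of the comparison alone, no trend, the replicate number as a block, and each library left out. Promoter windows came from RefSeq on GRCh38.p14, transcripts from GENCODE release 29. Python 3.11.15, numpy 2.4.6, pandas 2.3.3, scipy 1.17.1 and matplotlib 3.10.9 were used.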

Additional observations from a re-analysis of the deposited data

How the results depend on the processing

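The genes called with pyridostatin were lower under every alternative run, apart from PCNA after quantile normalization, and numbered 13 to 21 in WT (14 as reported) and 27 to 35 in PARP3-/- cells (30 as reported) apart from the fits named next. With only the 6 WT libraries in the fit, 1 gene was called, MCM2, as 65 genes were over the whole table, against 495. Leaving out 1 library gave 9 to 19 calls in WT (9 without WT pyridostatin replicate 1, 19 without WT vehicle replicate 2) and 16 to 39 in PARP3-/- cells, with median log2 fold changes of −0.18 to −0.14 and −0.24 to −0.22. Over the same fits, 0.387% to 2.47% of all genes were called lower in WT and 0.758% to 6.19% in PARP3-/- cells. Setting the library medians equal gave medians of −0.20 in WT, −0.24 in PARP3-/- cells, −0.036 between genotypes with vehicle and −0.093 with pyridostatin. The medians of all genes moved as well, to −0.030, −0.018, −0.025 and −0.019 in the same order. After quantile normalization PCNA was 1 of 16 genes called in WT. The 2 calls between genotypes with vehicle became 1 after quantile normalization, 0 with a common median, 0 with only the libraries of the comparison, and 0 to 4 with 1 library left out. The 1 call with pyridostatin became 3 after quantile normalization, 2 with a common median, and 0 to 6 with 1 library left out, where the median ran from −0.066 to −0.051. The counts of 4 and 6 came without WT vehicle replicate 2, where 5.02% and 8.24% of all genes were called lower and 8.82% and 11.1% higher. The interaction called 0 genes of the 47 in each alternative run, and a fit of single comparisons cannot give it. No called gene changed sign. Over the genes called with pyridostatin and the alternatives, calls were lost 42 times and held 238 times in WT, and lost 91 times and held 509 times in PARP3-/- cells. The causes were not tested.

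Whether same-numbered libraries share more than a number is not given in the sources used here. The correlations of their deviations ran from −0.120 to 0.216 over the 4 comparisons and were not all above 0.1 in any. Between genotypes with vehicle 6 of 6 libraries correlated best with the library of their own number, against 2 of 6 with pyridostatin, 2 of 6 for pyridostatin in WT and 5 of 6 in PARP3-/- cells, which is a hint from the data and not from the design. Blocking on that number (replicate block), 13 genes were called in WT, 28 in PARP3-/- cells, 1 between genotypes with vehicle (2 without the block), 1 with pyridostatin and 0 in the interaction.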
